A study of Homo sapiens with 6 samples.

Results

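The 8 genes described here are ACAT2, HMGCS1, IDI1, FDFT1, SQLE, SC5D, DHCR7 and INSIG1, a set of cholesterol synthesis enzymes and a sterol sensor that are known targets of the transcription factor SREBP2. They were taken by name, and every probe annotated to them was used if its detection p was under 0.01 on 2 or more of the 6 arrays. This gave 11 probes for 7 of the genes, out of 18106 probes that met the same condition on the whole array. No probe carried the name FDFT1 in the annotation used, so squalene synthase is given only from the authors' deposited table. The arrays were Illumina BeadChips that read the mRNA of MDA-MB-231, a long-established human cell line from a triple-negative breast cancer. In 2 of the samples the cells were mock-transfected (control). In another 2 they stably over-expressed the tRNA gene chr1.trna5 (Glu-TTC), and in a further 2 chr16.trna1 (Arg-CCG), referred to as tRNA-Glu and tRNA-Arg. All 6 samples shared the DMEM-based medium with serum, and the labels do not say whether a line was 1 clone, or whether replicates were separate cultures. The p-values may therefore rest on technical spread alone.

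Cells build cholesterol from acetyl-CoA. Thiolase and HMG-CoA synthase start the mevalonate pathway, isopentenyl diphosphate isomerase balances its isoprene units, squalene synthase and squalene epoxidase commit the chain to sterols, and a run of reductases, isomerases and desaturases finishes the ring system. When membrane sterol is low, SCAP carries SREBP2 from the endoplasmic reticulum to the Golgi, where the proteases MBTPS1 and MBTPS2 free its active part, which then switches on most genes of the pathway. INSIG1 and INSIG2 hold SCAP back when sterol is plentiful, and INSIG1 is itself an SREBP target. In breast cancer lines the pathway is known to supply membranes of dividing cells and lipid anchors of signalling proteins.

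Promoter sequences are shown for a member that rose in tRNA-Arg cells by both of its probes (INSIG1), one that fell in tRNA-Glu cells (SC5D) and one called in neither (HMGCS1), with SREBF2, which encodes SREBP2 itself, for contrast. Each is the 200 bases before the transcript start from RefSeq on build GRCh38.p14, written 5′ to 3′ on the gene's strand: INSIG1 at chr7:155297678-155297877 (plus strand), SC5D at chr11:121292571-121292770 (plus strand), HMGCS1 at chr5:43313413-43313612 (minus strand) and SREBF2 at chr22:41832905-41833104 (plus strand). Capitals mark the CCAAT box (CCAAT or its reverse complement ATTGG), the E-box CACGTG, and the sterol regulatory element TCACNCCAC on either strand.
INSIG1: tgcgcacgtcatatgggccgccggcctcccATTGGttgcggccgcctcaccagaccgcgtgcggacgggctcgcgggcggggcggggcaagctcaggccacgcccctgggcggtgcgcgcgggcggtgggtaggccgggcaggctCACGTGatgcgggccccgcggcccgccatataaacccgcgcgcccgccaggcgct
SC5D: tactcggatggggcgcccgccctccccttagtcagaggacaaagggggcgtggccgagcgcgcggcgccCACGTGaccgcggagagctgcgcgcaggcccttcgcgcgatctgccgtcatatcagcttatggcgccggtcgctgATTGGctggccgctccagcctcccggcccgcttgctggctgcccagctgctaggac
HMGCS1: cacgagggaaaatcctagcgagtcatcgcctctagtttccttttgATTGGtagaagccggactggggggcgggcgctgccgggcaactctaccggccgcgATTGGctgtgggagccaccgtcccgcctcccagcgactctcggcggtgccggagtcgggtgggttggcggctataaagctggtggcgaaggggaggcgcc
SREBF2: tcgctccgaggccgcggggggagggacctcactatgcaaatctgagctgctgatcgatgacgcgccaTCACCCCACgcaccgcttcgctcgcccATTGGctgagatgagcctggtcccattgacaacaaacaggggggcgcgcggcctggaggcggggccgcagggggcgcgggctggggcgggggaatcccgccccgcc
The RefSeq table held 10 promoter windows of 300 bases for the members HMGCS1, IDI1, SC5D, DHCR7 and INSIG1, some of them overlapping, and the other 3 members are not described by promoter here. Of these, 7 windows, at least 1 for each of the 5 genes, held a CCAAT box, against 34.6% of all 35116 promoters in the table. The box began 170 bases before the start of INSIG1, 56 before that of SC5D and at both 155 and 100 before that of HMGCS1. The E-box CACGTG stood 55 bases before the start of INSIG1 and 131 before that of SC5D. It occurred in 3 of the 10 windows, which came from 2 of the 5 genes, and in 7.26% of all promoters. The overlapping windows of SC5D held the same site. The GC box GGGCGG, on either strand, was in 9 of the 10 windows, at least 1 for each of the 5 genes, and in 45% of all promoters. The letters TCACNCCAC were in none of the 10 windows and in 1.13% of all promoters, and the SREBF2 window held them 133 bases before the start. Only these letters, with any base at N, were searched. Their absence therefore does not show that a member promoter lacks a sterol regulatory element of another form. In these windows INSIG1 and SC5D both held the CCAAT box and the E-box letters.

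Mean non-normalised intensities of the arrays lay between 250.6 and 331.3, and 16650 to 17704 probes were detected per array. The breast line markers VIM, CD44, AXL, CAV1 and MSN were detected on all 6 arrays, and of 5 markers listed as low or absent in this line ESR1, PGR and CDH1 were detected on none, while ERBB2 and EPCAM were detected on all 6. EPCAM was called higher in both lines (0.39, limma adjusted p = 0.0341, in tRNA-Glu and 0.57, adjusted p = 0.0112, in tRNA-Arg). Of the breast line markers, AXL (0.84 in tRNA-Glu and 0.80 in tRNA-Arg) and MSN (0.65 and 0.52) were called higher in both lines. CD44 (-0.44) and CAV1 (-0.29) were called lower in tRNA-Glu and not called in tRNA-Arg, and VIM was called in neither line. The summed level of the blood cell markers LAPTM5, CD68, CD14 and CSF1R on the linear normalised scale was 1756 to 1822 in control, 3822 to 4035 in tRNA-Glu and 2654 to 2751 in tRNA-Arg, while PTPRC and CD3D were detected on no array. LAPTM5, CD68 and CSF1R were called higher in both lines, whereas CD14 was called lower in tRNA-Arg (-0.76, adjusted p = 0.00138) and not called in tRNA-Glu (0.12, adjusted p = 0.337). The part of this in the differences below was not tested. The arrays carry no measure here of the over-expressed tRNAs, so the over-expression itself was not checked.

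In tRNA-Glu cells the late enzymes of the set moved in opposite directions, with SQLE and SC5D lower than in control and DHCR7 higher, while the early enzymes ACAT2, HMGCS1 and IDI1 were not called by the probe that stood for each gene. In tRNA-Arg cells ACAT2 and the sterol sensor INSIG1 were higher, and no member was called lower. The called members thus moved in both directions in tRNA-Glu, and both members called in tRNA-Arg were higher. Signed values are on the log2 scale of normalised intensity and are positive where the over-expressing line was higher than control or, between the lines, where tRNA-Glu was higher. In RNA from whole cultures, fewer cells expressing a gene and less RNA per cell cannot be told apart. The signed values run opposite to the fold changes of the authors' deposited table, whose sign and log base are not stated. Its values correlated with the differences found here with r = -0.948 for tRNA-Glu and r = -0.947 for tRNA-Arg across 5376 genes with 1 probe, which are not independent replicates.

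**Figure D1:**
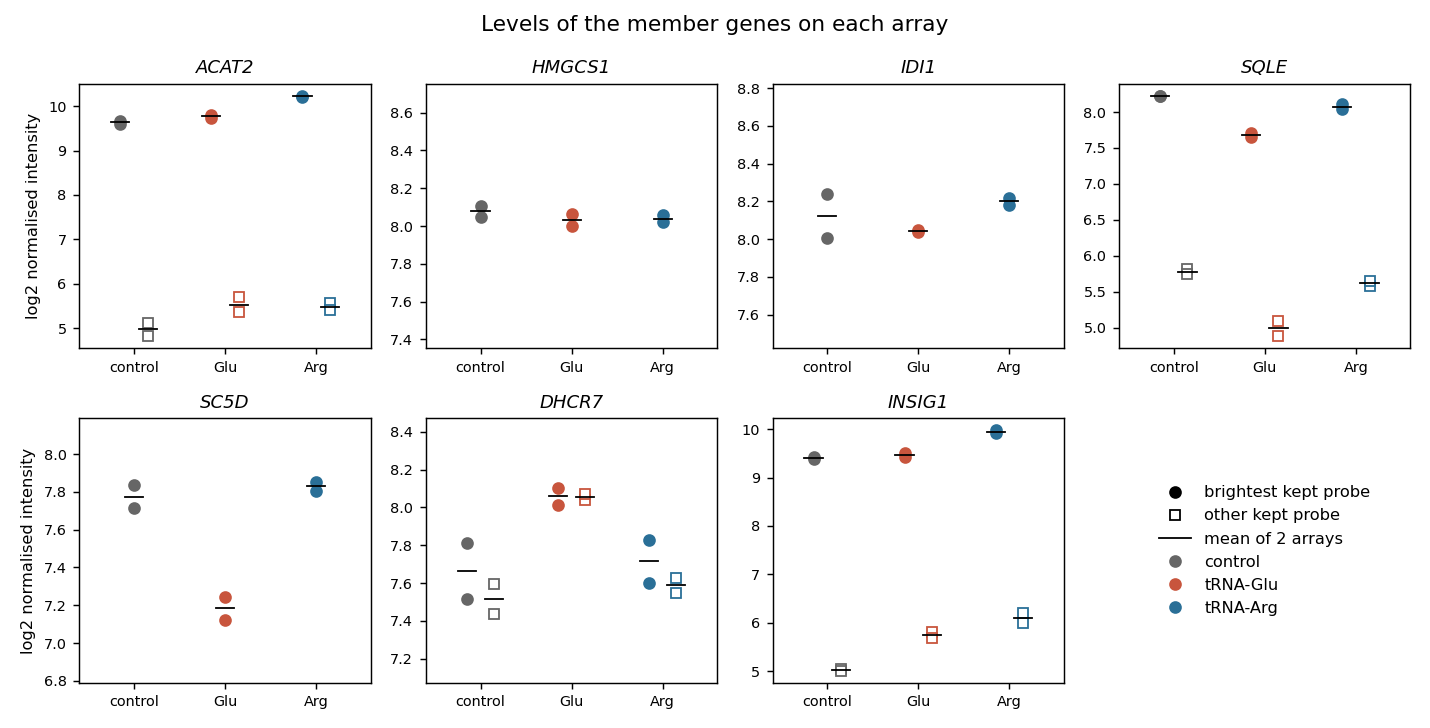
Log2 normalised intensity (vertical axis, its range set per gene) of the 7 measured member genes on each array, by group (horizontal axis), with filled circles for the brightest kept probe, open squares for another kept probe and a line at the mean of 2 arrays. SQLE and SC5D are lower in tRNA-Glu than on any other array, and the brightest probes of ACAT2 and INSIG1 are highest in tRNA-Arg.

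ACAT2, the cytosolic acetyl-CoA acetyltransferase that joins acetyl-CoA units at the start of the pathway, had 2 kept probes. On the brighter probe (ILMN_1708672) the log2 level was 9.60 and 9.68 in control, 9.73 and 9.81 in tRNA-Glu, and 10.24 and 10.20 in tRNA-Arg. The tRNA-Arg arrays stood above all others, and the tRNA-Glu arrays just above control. ACAT2 was higher in tRNA-Arg by 0.58 ± 0.08 on the log2 scale (standard error, 2 arrays in each group, adjusted p = 0.00208 from limma), whereas the tRNA-Glu difference of 0.13 (95% confidence interval -0.07 to 0.33) was not called (adjusted p = 0.223). The dim probe (ILMN_2133799) read 4.82 and 5.12 in control, 5.36 and 5.70 in tRNA-Glu, and 5.57 and 5.41 in tRNA-Arg, so that both lines lay above control and overlapped each other. It was called higher in tRNA-Glu (0.56 ± 0.15, adjusted p = 0.0166) and in tRNA-Arg (0.51 ± 0.15, adjusted p = 0.0308), so the probes gave different calls in tRNA-Glu. Its detection p was above 0.01 on control array 1, and both of its calls were lost without that array (adjusted p = 0.0937 and 0.152), while the tRNA-Glu call was also lost without tRNA-Glu array 2 (adjusted p = 0.0895) and the tRNA-Arg call without tRNA-Arg array 1 or 2 (0.143 and 0.0672), with median scaling (0.065) and with no filter on detection (0.0826).

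HMGCS1, the HMG-CoA synthase of the next step, showed nearly the same level everywhere. Its log2 values were 8.050 and 8.107 in control, 8.001 and 8.062 in tRNA-Glu, and 8.059 and 8.021 in tRNA-Arg. The groups overlapped throughout. The difference from control was -0.05 (95% confidence interval -0.24 to 0.14, adjusted p = 0.65) in tRNA-Glu and -0.04 (-0.23 to 0.15, adjusted p = 0.732) in tRNA-Arg.

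IDI1, the isopentenyl diphosphate isomerase, had values of 8.01 and 8.24 in control, 8.04 and 8.05 in tRNA-Glu, and 8.18 and 8.22 in tRNA-Arg. Both lines lay within the span of the control arrays. The differences were -0.08 (95% confidence interval -0.32 to 0.15, adjusted p = 0.521) in tRNA-Glu and 0.08 (-0.16 to 0.31, adjusted p = 0.573) in tRNA-Arg.

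FDFT1, squalene synthase, which joins farnesyl units into squalene, was listed in the authors' deposited table at -0.263 for tRNA-Glu and -0.324 for tRNA-Arg. In the same authors' deposited table ACAT2 stood at -0.153 and -0.362 and SC5D, under its older symbol SC5DL, at 0.406 and -0.0415. These values come without arrays or p-values. Across genes the authors' values ran opposite in sign to the differences found here, as they did for ACAT2 and SC5D. A negative value there thus mostly goes with a higher level in the over-expressing line. Their log base is not stated, so their size is not set against the log2 differences.

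SQLE, squalene epoxidase, a rate-limiting step of the sterol branch, was lower in tRNA-Glu by both of its probes. The brighter probe (ILMN_2041293) read 8.23 and 8.22 in control, 7.65 and 7.71 in tRNA-Glu, and 8.12 and 8.04 in tRNA-Arg. The tRNA-Glu arrays were the lowest of the 6, and the tRNA-Arg arrays lay just under control. SQLE was 1.46-fold lower in tRNA-Glu (log2 difference -0.54 ± 0.08 SE, adjusted p = 0.00147), and the tRNA-Arg difference of -0.15 (95% confidence interval -0.34 to 0.05) was not called (adjusted p = 0.192). The dim probe (ILMN_1772241) gave -0.79 ± 0.10 in tRNA-Glu (adjusted p = 6.72e-04) from values of 5.81 and 5.74 in control and 4.88 and 5.09 in tRNA-Glu, and -0.16 in tRNA-Arg (adjusted p = 0.235).

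SC5D, the sterol C5-desaturase near the end of the pathway, fell in the same line. Its probe read 7.84 and 7.71 in control, 7.24 and 7.12 in tRNA-Glu, and 7.85 and 7.81 in tRNA-Arg. The tRNA-Glu arrays lay apart below the other 4, and tRNA-Arg overlapped control. SC5D was 1.51-fold lower in tRNA-Glu (-0.59 ± 0.09, adjusted p = 0.00158), and the tRNA-Arg difference was 0.06 (95% confidence interval -0.16 to 0.27, adjusted p = 0.655).

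DHCR7, the reductase of the final step to cholesterol, rose in tRNA-Glu by both probes. ILMN_2165867 read 7.60 and 7.44 in control, 8.04 and 8.07 in tRNA-Glu, and 7.63 and 7.55 in tRNA-Arg. The tRNA-Glu arrays were highest and the other groups overlapped. On this probe DHCR7 was 1.45-fold higher in tRNA-Glu (0.54 ± 0.09, adjusted p = 0.00235) and differed by 0.07 in tRNA-Arg (95% confidence interval -0.14 to 0.28, adjusted p = 0.566). The slightly brighter ILMN_1815626 read 7.81 and 7.51 in control, 8.01 and 8.10 in tRNA-Glu, and 7.60 and 7.83 in tRNA-Arg, with a wider spread between control arrays. Its rise of 0.40 ± 0.13 in tRNA-Glu passed narrowly (adjusted p = 0.0341). That call was lost without control array 2 (0.25, adjusted p = 0.175), without tRNA-Glu array 1 (0.44, adjusted p = 0.0689) or 2 (0.35, adjusted p = 0.134), with median scaling (adjusted p = 0.137), with no filter on detection (adjusted p = 0.0833), and with the replicate number as a block (adjusted p = 0.0512).

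INSIG1, which retains SCAP in the endoplasmic reticulum and is itself an SREBP target, was higher in tRNA-Arg by both probes. SREBP activity was not measured. The brighter probe (ILMN_1793474) read 9.42 and 9.38 in control, 9.51 and 9.43 in tRNA-Glu, and 9.93 and 9.97 in tRNA-Arg. The tRNA-Arg arrays lay clearly above, and the tRNA-Glu arrays only just above control. INSIG1 was 1.47-fold higher in tRNA-Arg (0.55 ± 0.08, adjusted p = 0.0024) and not called in tRNA-Glu (0.07, 95% confidence interval -0.12 to 0.27, adjusted p = 0.482). The dim probe (ILMN_1686989) read 5.046 and 5.004 in control, 5.806 and 5.685 in tRNA-Glu, and 5.998 and 6.210 in tRNA-Arg, which set all 3 groups apart. It gave a rise of 2.11-fold in tRNA-Arg (1.08 ± 0.10, adjusted p = 4.16e-04) and of 1.65-fold in tRNA-Glu (0.72 ± 0.10, adjusted p = 0.00109), so for INSIG1, as for ACAT2, only the dimmer probe was called in tRNA-Glu. In control this dim probe was near the detection limit (detection p of 0.00519 and 0.00909). Without background correction its rises were smaller, 0.72 in tRNA-Arg and 0.46 in tRNA-Glu on the log2 scale, and still called. With the mean of the probes of a gene, both INSIG1 (0.40, adjusted p = 0.00485) and ACAT2 (0.35, adjusted p = 0.0243) were called higher in tRNA-Glu.

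**Figure D2:**
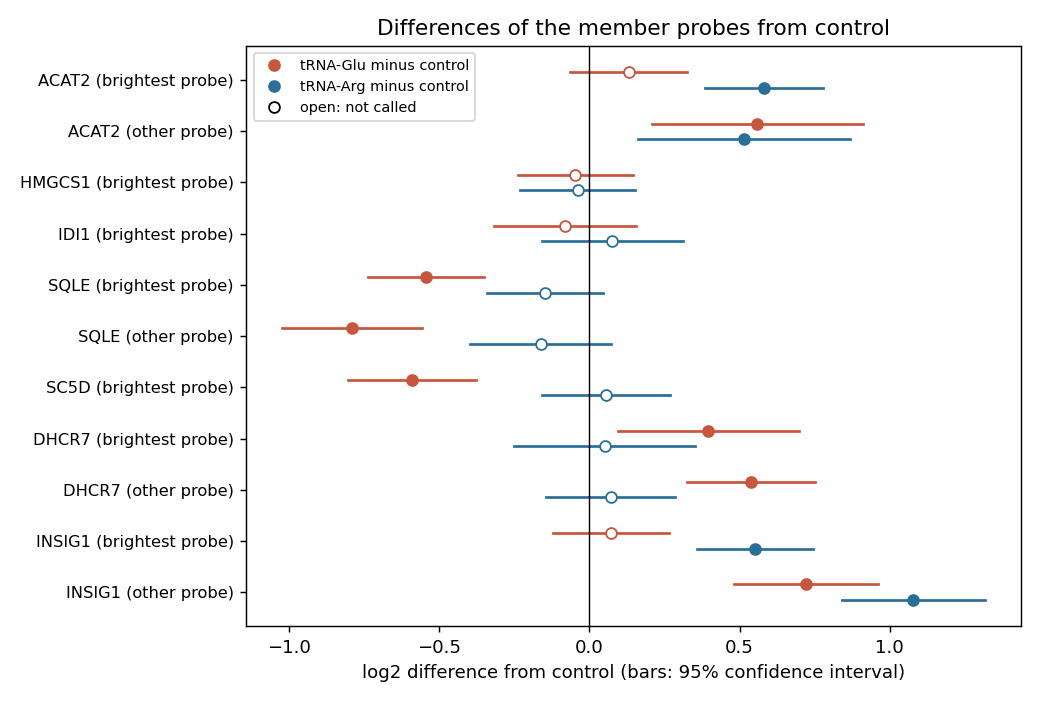
Log2 difference from control (horizontal axis) of each of the 11 kept member probes (vertical axis) in tRNA-Glu and tRNA-Arg, with bars for the 95% confidence interval of the limma fit and open points where the probe was not called. SQLE and SC5D are called left of 0 and DHCR7 right of 0 in tRNA-Glu, and both probes of ACAT2 and INSIG1 right of 0 in tRNA-Arg.

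Counted by the brightest kept probe of each gene, 1 of the 7 measured members was called higher in tRNA-Glu and 2 lower, against 30.3% and 26.5% of all 10877 genes. In tRNA-Arg 2 were higher and 0 lower, against 20.4% and 22.2% of all genes. These shares are near the background, so the counts are no result about the set. At an unadjusted p under 0.05 the limma fit also put 0 members lower in tRNA-Arg, where SQLE had an unadjusted p of 0.113. The median member difference was -0.05 in tRNA-Glu (0.04 over all genes) and 0.06 in tRNA-Arg (-0.02 over all genes). With the mean of the probes of a gene, 5 members were called in tRNA-Glu. Both comparisons use the same 2 control arrays.

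The direct comparison of the lines tested where they differed. Of the 7 members, 4 were lower in tRNA-Glu than in tRNA-Arg and 0 were higher by the brightest probe, against 16.5% lower and 21.7% higher of all genes, with a median member difference of -0.39 beside 0.05 over all genes. By limma, 1 member, DHCR7, was higher in tRNA-Glu at an unadjusted p under 0.05. SC5D differed most (-0.65 ± 0.09, adjusted p = 0.00349), followed by INSIG1 (-0.48 ± 0.08, adjusted p = 0.00618), ACAT2 (-0.45 ± 0.08, adjusted p = 0.00795) and SQLE (-0.39 ± 0.08, adjusted p = 0.0114). These 4 arose in different ways, since SC5D and SQLE were below control in tRNA-Glu and INSIG1 and ACAT2 above control in tRNA-Arg. The dim probes repeated the call for SQLE (-0.63, adjusted p = 0.00488) and INSIG1 (-0.36, adjusted p = 0.0317), and for ACAT2 the dim probe gave 0.05 (95% confidence interval -0.31 to 0.40, adjusted p = 0.837). DHCR7 was higher in tRNA-Glu than in tRNA-Arg on ILMN_2165867 (0.47 ± 0.09, adjusted p = 0.00915), and its brighter probe was not called (0.34, adjusted p = 0.0743). HMGCS1 differed by -0.01 between the lines (95% confidence interval -0.20 to 0.18, adjusted p = 0.947) and IDI1 by -0.16 (-0.39 to 0.08, adjusted p = 0.254). With median scaling, SC5D alone of the brightest member probes was still called between the lines. The SQLE call was also lost on its brighter probe without tRNA-Glu array 1 (adjusted p = 0.0559) or tRNA-Arg array 1 (0.0637). The call on the dim INSIG1 probe was lost without tRNA-Glu array 1 or 2 or tRNA-Arg array 2 (adjusted p = 0.06, 0.147 and 0.153), with no filter on detection (0.0651) and with median scaling (0.187). That on ILMN_2165867 of DHCR7 was lost without tRNA-Arg array 2 (0.0525) and with median scaling (0.172). With probes averaged per gene the ACAT2 difference between the lines was -0.20 and not called (adjusted p = 0.156), and DHCR7 was called higher in tRNA-Glu (0.41, adjusted p = 0.0135), which gave 1 member higher and 3 lower.

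The rest of the pathway was followed through 14 further enzymes, of which 12 had a kept probe. In tRNA-Glu 5 of the 12 were higher and 2 lower, with a median of 0.26, beside 30.3% higher and 26.5% lower of all genes. MVD, mevalonate diphosphate decarboxylase, was 1.80-fold higher (0.85 ± 0.12, adjusted p = 0.00103), NSDHL, a sterol dehydrogenase, 1.69-fold (adjusted p = 5.19e-04), EBP, a sterol isomerase, 1.66-fold (adjusted p = 5.84e-04) and LSS, lanosterol synthase, 1.46-fold (adjusted p = 0.00185). FDPS, farnesyl diphosphate synthase, passed narrowly (0.28, adjusted p = 0.04), a call lost in 10 of 17 alternatives. The fall of SQLE thus stood next to a rise of LSS, the enzyme that uses its product, and the fall of SC5D between the rises of EBP before it and DHCR7 after it. The lower genes were LBR, a sterol reductase of the inner nuclear membrane (-0.75, adjusted p = 0.00117), and MSMO1, a methylsterol oxidase (-0.38, adjusted p = 0.0118). Their other probes differed. For LBR the other probe gave 0.18 (adjusted p = 0.351), and for MSMO1 one gave 0.31 (adjusted p = 0.174) and another was called lower but was not above background on either tRNA-Glu array.

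In tRNA-Arg 4 of the 12 enzymes were higher and 4 lower, with a median of -0.04, beside 20.4% and 22.2% of all genes. MVD (0.61, adjusted p = 0.00671), NSDHL (0.48, adjusted p = 0.00608) and EBP (0.29, adjusted p = 0.0401) rose as in tRNA-Glu. LBR rose (0.65, adjusted p = 0.00363), where its other probe gave 0.37 (adjusted p = 0.0868). The mevalonate kinases MVK (-0.35, adjusted p = 0.0409) and PMVK (-0.43, adjusted p = 0.00921) fell, with TM7SF2, a sterol reductase (-0.58, adjusted p = 0.0138), and MSMO1 (-0.43, adjusted p = 0.0109). Of the other MSMO1 probes, ILMN_2402499 gave 0.16 (adjusted p = 0.508) and ILMN_1689842 gave -1.23 (adjusted p = 0.00206). In tRNA-Arg the call of EBP was lost in 8 and that of MVK in 7 of 17 alternatives. Between the lines 8 of the 12 were higher in tRNA-Glu and 1 lower, with a median of 0.30, beside 21.7% and 16.5% of all genes. LBR was the 1 lower gene (-1.41 ± 0.11, adjusted p = 0.00113), with -0.20 and no call on its other probe (adjusted p = 0.34). The count of enzymes called between the lines dropped to 3 with median scaling.

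**Figure D3:**
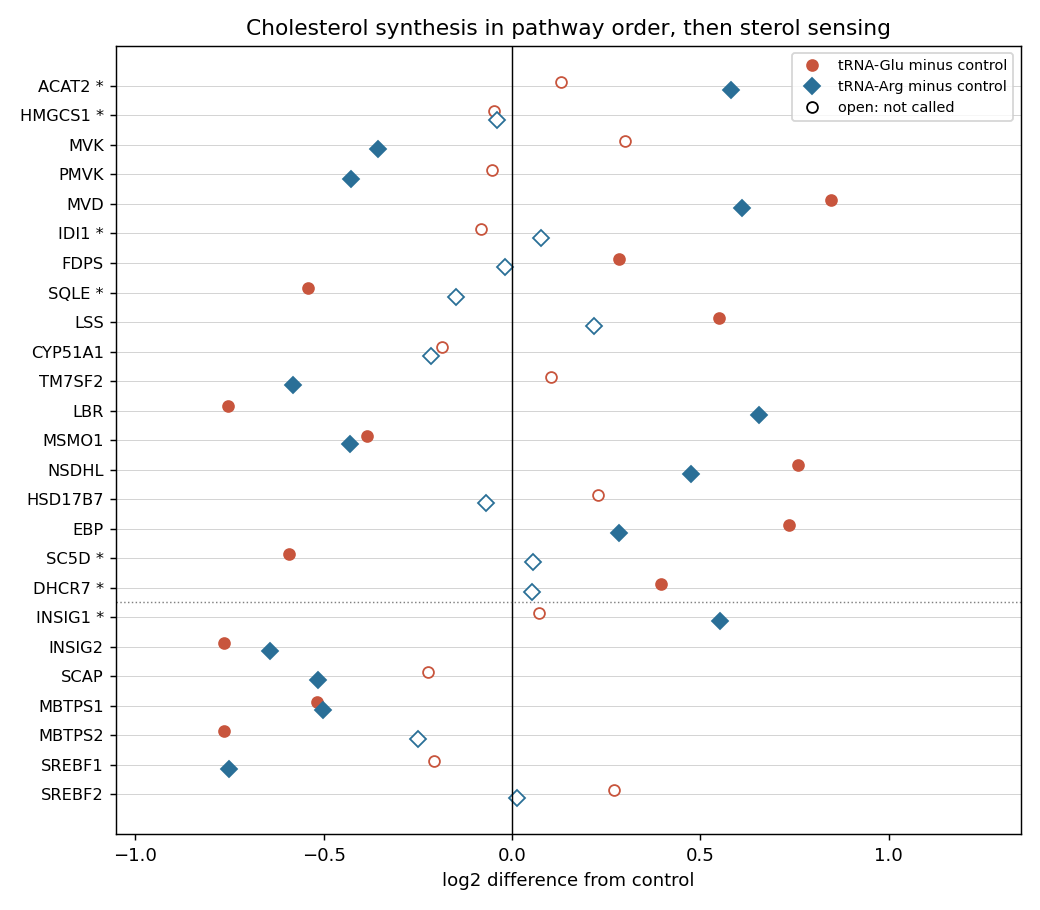
Log2 difference from control (horizontal axis) of the measured cholesterol synthesis genes in approximate pathway order and, under the dotted line, of sterol sensing genes (vertical axis, members starred), with circles for tRNA-Glu, diamonds for tRNA-Arg and open points where not called, 1 probe per gene. Rises and falls are interspersed along the pathway in both lines, and of the sensing genes plotted only INSIG1 is called higher, in tRNA-Arg.

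Among 8 measured genes of sterol sensing and SREBP processing, 4 were lower in tRNA-Glu and 5 in tRNA-Arg, and 0 were higher in either by limma, also at an unadjusted p under 0.05, with medians of -0.34 and -0.43. Of all genes 26.5% were lower and 30.3% higher in tRNA-Glu, and 22.2% and 20.4% in tRNA-Arg. INSIG2, the close relative of INSIG1, was lower in both lines (-0.76 ± 0.08, adjusted p = 3.97e-04, and -0.64 ± 0.08, adjusted p = 0.00149), with levels of 8.29 and 8.32 in control, 7.48 and 7.60 in tRNA-Glu and 7.68 and 7.65 in tRNA-Arg. In tRNA-Arg the INSIG genes therefore differed from control in opposite directions. The protease MBTPS1 fell in both lines (-0.52, adjusted p = 0.00579, and -0.50, adjusted p = 0.00993), and MBTPS2 in tRNA-Glu (-0.76, adjusted p = 5.05e-04). SCAP was called lower in tRNA-Arg (-0.52, adjusted p = 0.00797) and not in tRNA-Glu (-0.22, adjusted p = 0.109). SREBF1, the gene of SREBP1, was lower in tRNA-Arg (-0.75 ± 0.09, adjusted p = 0.00113) and not called in tRNA-Glu (-0.21, adjusted p = 0.0945), and the lines differed (0.54, adjusted p = 0.0058). On its other probe the difference between the lines was not called (0.42, adjusted p = 0.0571). SREBF2 was detected on only 2 of the 6 arrays, and its values of 4.69 and 4.86 in control, 4.75 and 5.35 in tRNA-Glu and 4.94 and 4.64 in tRNA-Arg overlapped. Its differences of 0.27 (adjusted p = 0.286) and 0.01 (adjusted p = 0.96) were not called.

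Of 14 measured fatty acid synthesis genes and SREBP1 targets, 2 were higher and 7 lower in tRNA-Glu (30.3% and 26.5% of all genes), and 3 higher and 7 lower in tRNA-Arg (20.4% and 22.2%). SCD, stearoyl-CoA desaturase, was 3.35-fold lower in tRNA-Arg (-1.75 ± 0.08, adjusted p = 3.33e-05) and 1.64-fold lower in tRNA-Glu (-0.71, adjusted p = 4.66e-04), with a difference between the lines of 1.03 (adjusted p = 0.00118). Its levels were 10.40 and 10.49 in control, 9.73 and 9.74 in tRNA-Glu, and 8.70 and 8.70 in tRNA-Arg. ACSS2, acetyl-CoA synthetase, was lower in both lines too (-1.21 in tRNA-Arg, adjusted p = 1.27e-04, and -0.51 in tRNA-Glu, adjusted p = 0.00199). ELOVL1, a fatty acid elongase, was higher in both (1.38 in tRNA-Glu, adjusted p = 3.77e-04, and 1.00 in tRNA-Arg, adjusted p = 0.00242). ELOVL6 was called higher in both on its brightest probe (0.50 and 0.61), while its other probe gave -0.29 in tRNA-Glu (adjusted p = 0.0222).

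Of 15 measured genes of cholesterol uptake, transport and esterification, 4 were higher and 5 lower in tRNA-Glu (30.3% and 26.5% of all genes), and 4 higher and 8 lower in tRNA-Arg (20.4% and 22.2%). SCARB1, a lipoprotein receptor, rose in both lines (0.997, adjusted p = 1.76e-04, and 0.73, adjusted p = 0.00106), and VLDLR fell in both (-1.21, adjusted p = 1.45e-04, and -0.60, adjusted p = 0.004). ABCA1, the pump that moves cholesterol out of cells, was 2.34-fold lower in tRNA-Arg (-1.23 ± 0.08, adjusted p = 1.09e-04) and not called in tRNA-Glu (-0.11, adjusted p = 0.291). Its levels were 9.66 and 9.73 in control, 9.58 and 9.59 in tRNA-Glu, and 8.49 and 8.45 in tRNA-Arg. SOAT1, which esterifies cholesterol for storage, rose in tRNA-Arg (0.67, adjusted p = 0.00116).

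Of 12 measured genes of the isoprenoid branches, 1 was higher and 5 lower in tRNA-Glu (30.3% and 26.5% of all genes), and 1 higher and 3 lower in tRNA-Arg (20.4% and 22.2%). GGPS1, geranylgeranyl diphosphate synthase, was lower in both lines (-0.67, adjusted p = 6.34e-04, and -0.56, adjusted p = 0.00226), and DHDDS, of dolichol synthesis, was higher in both (0.70, adjusted p = 8.11e-04, and 0.58, adjusted p = 0.00301). FNTA, the shared subunit of protein prenyltransferases, fell in tRNA-Glu (-0.73, adjusted p = 5.39e-04) and was not called in tRNA-Arg (0.13, adjusted p = 0.281). Of 3 measured close relatives of the members, 1 was higher and 2 lower in tRNA-Glu (30.3% and 26.5% of all genes), and likewise 1 higher and 2 lower in tRNA-Arg (20.4% and 22.2%). The lower genes in both were INSIG2 and FADS1, already counted above among the sterol sensing and fatty acid genes. The higher gene in both was ACAT1, the mitochondrial thiolase (0.29, adjusted p = 0.0295, and 0.44, adjusted p = 0.00882). Its tRNA-Glu call was lost in 6 of 17 alternatives.

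The members also differed in how they varied over the 6 arrays. Across these arrays, which fall into 3 groups of 2 and share their normalisation, INSIG1 and ACAT2 correlated with r = 0.964 and SQLE and SC5D with r = 0.917, while SQLE and DHCR7 ran opposite (r = -0.85) and SQLE and INSIG1 showed little relation (r = 0.12). The mean centred profile of the 7 members was -0.02 and -0.03 in control, -0.12 and -0.11 in tRNA-Glu, and 0.13 and 0.15 in tRNA-Arg. Of 9960 other genes with at least the range of this profile, CCNC, a cyclin of the Mediator kinase module (r = 0.997), ARMCX1 (r = 0.995), F3, tissue factor (r = 0.994), RCL1 (r = 0.993) and PUS7L (r = 0.993) were the most alike. With so few independent groups such values only describe the order of the groups.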

How the data were processed

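Gene expression was measured on 6 Illumina BeadChips. The authors' array table holds, per the file headers, non-normalised intensity and a detection p-value for 47323 probes. The authors also deposited a processed table of intensity values, for which the submitters' processing notes name lumi without version or settings, and a table of fold changes per gene symbol, taken here as log2-like though the authors state neither base nor sign. Its method is not given in the sources used here.

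Intensities were corrected and normalised by the neqc function (limma 3.58.1, R 4.3.3; background from detection p, offset 16, quantile, log2). The 18106 probes detected on 2 or more arrays (detection p under 0.01) were fitted in 1 limma model over the 3 groups (degrees of freedom 3 residual, 4.08 prior). P-values were adjusted over all kept probes by Benjamini and Hochberg, and a probe was called at an adjusted p under 0.05. Counts of genes use each gene's brightest kept probe by mean level, which gave 10877 genes. Of the probes on the array, 30113 had 1 named gene, 8 several and 17202 none. Confidence intervals are at 95%, and the number of arrays limits the precision.

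Members and gene lists were chosen with earlier results of these data known. Besides the members, the rule names SREBF2, SREBF1, SCAP and INSIG2, up to 4 genes of smallest unadjusted p per list and comparison, and the 5 genes most alike over the arrays. Alternatives covered background correction, normalisation, the detection filter, the authors' table, the unit tested, the groups fitted, a replicate block and each array left out. Some items are not reported here. Same-numbered replicates did not deviate together (correlations -0.046 to 0.021).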

Additional observations from a re-analysis of the deposited data

Results flagged for a closer look

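The responses of the lines differed by the test of the difference itself, tRNA-Glu minus tRNA-Arg on the log2 scale with a limma adjusted p under 0.05, for 5 members by any of their probes and 4 by the brightest, beside 38.2% of all genes. The values were ACAT2 (-0.45), SQLE (-0.39 and -0.63), SC5D (-0.65), DHCR7 (0.47) and INSIG1 (-0.48 and -0.36), with both probes given where both passed. No group holds enough arrays for a search for single deviating arrays.

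Among the other cholesterol enzymes the difference passed for MVK (0.66), PMVK (0.37), FDPS (0.30), LSS (0.33), TM7SF2 (0.68), NSDHL (0.28), EBP (0.45) and LBR (-1.41). HSD17B7 passed as well (0.30, limma adjusted p = 0.0349), but was not named by the rule or followed through the alternatives. Of 17 alternatives, the FDPS call was lost in 11, that of NSDHL in 10, those of PMVK and LSS in 5 each and that of EBP in 3. In sterol sensing it passed for SREBF1 (0.54) and MBTPS2 (-0.51), and the other SREBF1 probe was not called (0.42, adjusted p = 0.0571). In uptake, transport and esterification it passed for STARD3 (0.87), SOAT1 (-0.48), ABCA1 (1.12), ABCG1 (0.37), NR1H3 (0.64), VLDLR (-0.61) and OSBPL2 (0.42). NPC2 (0.44, limma adjusted p = 0.012) and LRP1 (0.74, adjusted p = 0.00567), not named by the rule, passed too. LRP1 was detected on only 4 arrays. The other OSBPL2 probe was not called (0.14, adjusted p = 0.398). Among fatty acid genes it passed for ACSS2 (0.70), SCD (1.03), ELOVL5 (-0.79) and ME1 (-0.51). In the isoprenoid branches it passed for PDSS1 (-0.39), FNTA (-0.86), RABGGTA (0.48) and RABGGTB (-0.33). The RABGGTA and RABGGTB calls were each lost in 6 alternatives, and those of ABCG1 and PDSS1 in 4. LBR was below control in tRNA-Glu and above it in tRNA-Arg on its brightest probe, and STARD3 the other way round, with calls in both lines.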

How the results depend on the processing

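Across the alternatives run for the 11 member probes, 486 of 531 values kept their direction and side of the threshold, 26 lost a call, 7 gained one and 12 changed sign, none of them a called value. The falls of SQLE and SC5D in tRNA-Glu and the rises of INSIG1 and of the brighter ACAT2 probe in tRNA-Arg were called under every alternative in which they were tested. So were the rises of DHCR7 on ILMN_2165867 and of the dim INSIG1 probe in tRNA-Glu. Of the other named genes, 1877 of 2088 values kept their call, 155 lost and 39 gained one, and 17 changed sign, 0 of them called values. With median scaling, 58.7% of all calls were rises in tRNA-Arg (47.9% in the main result), 56.7% in tRNA-Glu (53.4%) and 41.2% between the lines (56.8%), where 517 genes were called higher and 739 lower against 2360 and 1793. Calls in tRNA-Glu numbered 2140 higher and 1637 lower, against 3293 and 2878, and in tRNA-Arg 1286 and 903, against 2223 and 2414. Median scaling also left 1 member and 3 other cholesterol enzymes called between the lines (4 and 9 in the main result) and 4 enzymes in tRNA-Arg (8), with median member differences of 0.10 in tRNA-Arg and -0.45 between the lines. The median member difference between the lines was -0.36 without background correction, -0.34 with an offset of 50, -0.44 with cyclic loess, -0.37 in the authors' table and -0.20 with probes averaged per gene, which called 5 members in tRNA-Glu. Cyclic loess gave a median member difference of -0.0916 in tRNA-Glu. With 1 array left out, where the lone array is assumed to vary like the others, the median member difference ranged from -0.0773 to 0.0361 in tRNA-Glu, from -0.01 to 0.12 in tRNA-Arg and from -0.44 to -0.35 between the lines. The enzymes called ranged from 4 to 8 in tRNA-Arg and from 3 to 7 between the lines, and the members called from 2 to 3 in tRNA-Glu and from 3 to 4 between the lines. Detection limits SREBF2 and the dim probes of ACAT2 and SQLE, and the dim INSIG1 probe was near the detection limit in control. The cause of these changes was not tested.

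Values that changed sign were uncalled. Median scaling turned HMGCS1 to 0.0056, FDPS to 0.0466 and RABGGTB to 0.0245 in tRNA-Arg, and the dim ACAT2 probe to -0.0019 and RNF145 to -0.0181 between the lines. Cyclic loess turned SREBF2 to -0.0022 in tRNA-Arg and RNF145 to -0.0117 between the lines. Averaging probes per gene turned MSMO1 to -0.2379 and MBTPS1 to 0.0764 between the lines. Others crossed 0 with 1 array left out. In tRNA-Glu the values ran for IDI1 from -0.1982 to 0.0361 and SREBF2 from -0.0297 to 0.5734. In tRNA-Arg the values ran for IDI1 from -0.0406 to 0.1936, FDPS from -0.0841 to 0.0476, SREBF2 from -0.1316 to 0.16, SC5D from -0.006 to 0.1173, DHCR7 (ILMN_2165867) from -0.0083 to 0.1498 and DHCR7 (ILMN_1815626) from -0.0951 to 0.1994. Between the lines the values ran for HMGCS1 from -0.0388 to 0.0221, RNF145 from -0.069 to 0.0867, ACAT2 (ILMN_2133799) from -0.1237 to 0.2139, SREBF2 from -0.044 to 0.5592, MBTPS1 from -0.1392 to 0.108 and FADS1 from -0.0892 to 0.0394.

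With the replicate number as a block, 2 members were called in tRNA-Glu (3 without it, DHCR7 being lost), 2 in tRNA-Arg and 4 between the lines, and 7 enzymes in each comparison. The replicates share only a number, so this block is no evidence of pairing. The correlations of deviations of same-numbered arrays were between -0.046 and 0.021.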

Other observations

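Some probes of the same gene gave values far apart. A dim probe of MSMO1 was 2.35-fold lower in tRNA-Arg, where the brightest gave a log2 difference of -0.43 and the remaining probe 0.16, not called. The other probe of RABGGTB, a Rab prenyltransferase subunit, was 2.48-fold lower in tRNA-Glu, where its brightest was 1.41-fold lower. ELOVL6 gave 0.50 and -0.29 on the log2 scale in tRNA-Glu, both called, and 0.61 and 0.59 in tRNA-Arg.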
